A study of Homo sapiens with 6 samples.

Results

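LRIG1, SLC25A26, the ERBB receptor genes, EGFR-AS1 and ERRFI1 were described in RNA-seq counts of MB157 cells with an sgRNA against SOX9 and with a control sgRNA. The rule for choosing them named LRIG1, the gene whose exons overlap it on the other strand (SLC25A26), the receptors EGFR, ERBB2 and ERBB3, the antisense gene EGFR-AS1 and the brake gene ERRFI1, which makes 7 of 57209 gene rows. ERBB4, the remaining receptor of the 4, and MIEN1 and PGAP3, whose exons lie opposite ERBB2, were added, giving 10 rows. The rows were chosen with results of the comparison between both guides in view. The differences between the groups are therefore given for these 10 rows as a description, without a p-value.

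MB157 is an established human triple-negative breast cancer line, and per the titles it carried the Cas9 nuclease. One group received a guide to SOX9, which encodes an HMG-box transcription factor, and the other a control sgRNA. In both, RNA was taken 4 days after transfection from cells sorted for the top 50% of sgRNA expression, and cells of both groups were grown under puromycin. The series text speaks of cells that stably express SOX9, where the titles name Cas9. Each group held 3 libraries that the labels call technical replicates, so errors and p-values measure the spread between libraries and not between independent cultures. The line that received both guides is a single one, and nothing in the labels says whether it was a clone.

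The ERBB receptors are tyrosine kinases at the cell surface that bind ligands of the EGF and neuregulin families, form dimers and signal through the RAS and ERK and the PI3K and AKT cascades. ERBB2 has no known ligand of its own and pairs with the other receptors, and ERBB3 has little kinase activity and signals through its partners. LRIG1, a membrane protein with leucine-rich repeats and immunoglobulin domains, and ERRFI1, a cytoplasmic adaptor also called MIG6, both restrain these receptors. LRIG1 does so by promoting their ubiquitination and loss, and ERRFI1 by binding the kinase domain.

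Library totals were 829738, 776125 and 1018854 counts with the SOX9 sgRNA and 841592, 881655 and 777960 with the control sgRNA. The SOX9 sgRNA libraries detected 20207 to 21082 rows and the control libraries 18326 to 18818, and their scaling factors were 1.05 to 1.08 and 0.936 to 0.940. Rows of SOX9 itself held 37, 39 and 60 counts with the SOX9 sgRNA and 38, 52 and 44 with the control sgRNA (log2 difference -0.22, SE 0.26). The groups overlapped, so these counts give no check of the guide labels. The list of breast epithelial markers held 9 genes, of which VIM is known as a mesenchymal gene rather than an epithelial one. Its counts, VIM included, summed to 857 to 1141 with the SOX9 sgRNA and 943 to 1114 with the control sgRNA. Of the 9 genes, 7 had a count in every library. Of these 7, all tested, 3 fell and none rose, where 6.02% and 2.99% of all tested rows did. The 3 were VIM (log2 difference -1.61, edgeR adjusted p = 8.26e-12), KRT19 (-0.74, edgeR adjusted p = 1.83e-05) and KRT7 (-0.97, edgeR adjusted p = 0.018). KRT8 (0.11), KRT18 (0.33), KRT5 (0.41) and EPCAM (-0.68) did not pass the threshold. KRT14, not tested, held 1, 0 and 6 counts with the SOX9 sgRNA and 14, 9 and 16 with the control sgRNA, and KRT17, not tested, held 7, 4 and 10 with the SOX9 sgRNA and 0, 3 and 0 with the control sgRNA. ESR1 and PGR, the hormone receptor genes that a triple-negative tumour lacks, had at most 7 counts. Endothelial CDH5 and VWF were at 0 in all libraries, and the 4 fibroblast markers summed to at most 2 counts. Of the immune markers, CD3E was at 0 and PTPRC had at most 1 count. CD68 held 31, 32 and 36 counts with the SOX9 sgRNA and 18, 11 and 21 with the control sgRNA, and did not pass the threshold (log2 difference 0.74, edgeR adjusted p = 0.19). The part of these marker differences in the results below was not tested.

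Which strand a count came from matters for every row described here. The libraries were made with a stranded kit and counted with strand setting 1 of featureCounts. Of 81 genes of ERBB signalling in 6 lists, 25 had an exon-overlapping row on the other strand. In 20 of those 25 the opposite row with the largest overlap held more counts per kilobase of exon than the gene's own row. From which of both strands the counted transcripts came was not tested for any row. Each member is therefore given with its opposite row.

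LRIG1 (ENSG00000144749, chromosome 3, 66429221 to 66551687, minus strand, GRCh37) and SLC25A26 (ENSG00000144741, chromosome 3, 66119285 to 66438540, plus strand) converge, and their 3′ parts overlap. Over 907 bases their exons lie opposite each other, which is 15.5% of the 5850 exon bases of SLC25A26 and 12.9% of the 7032 of LRIG1. Of the rest of SLC25A26, 1994 bases lie opposite introns of LRIG1 and 2949 outside it. The overlap falls in 4 stretches of 118, 285, 131 and 373 bases in exon blocks 20, 25 and 26 of the 26 blocks of LRIG1, counted from its 5′ end. The stretch of 285 bases takes up the whole of block 25 (chromosome 3, 66431001 to 66431285, GRCh37). In GENCODE release 29 an LRIG1 coding exon of the same length has its reverse complement in 1 of 6 SLC25A26 transcripts. It is shown because any fragment from it can be assigned to either gene by strand alone, and it is written 5′ to 3′ on the LRIG1 strand (GRCh38, chr3:66380577-66380861, minus strand, in lower case throughout).
LRIG1 coding exon opposite SLC25A26: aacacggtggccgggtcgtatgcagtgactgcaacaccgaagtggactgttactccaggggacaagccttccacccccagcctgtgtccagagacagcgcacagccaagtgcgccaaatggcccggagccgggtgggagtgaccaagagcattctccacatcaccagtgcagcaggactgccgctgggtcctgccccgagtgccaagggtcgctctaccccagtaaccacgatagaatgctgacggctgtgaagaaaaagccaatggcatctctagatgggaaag

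**Figure D1:**
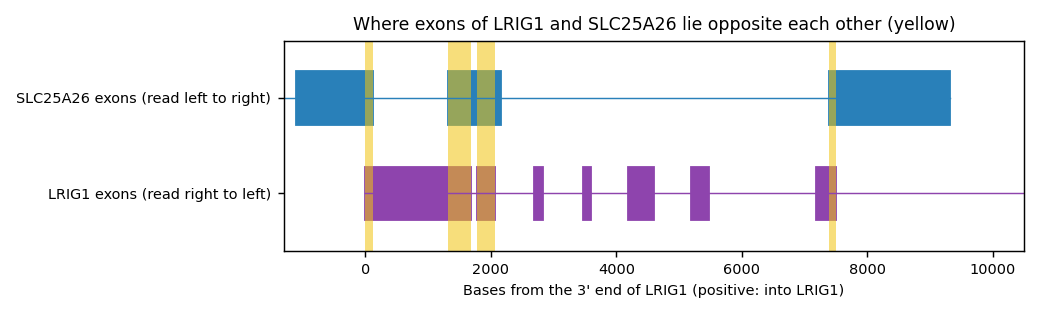
Exon blocks of SLC25A26 (top) and LRIG1 (bottom) drawn to scale against the distance in bases from the 3′ end of LRIG1, with yellow bands where exons of both genes lie opposite each other. The 4 bands sum to 907 bases, and the block of 285 bases lies wholly inside an exon of SLC25A26.

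SLC25A26, which encodes the carrier that brings S-adenosylmethionine into mitochondria, was the row of the 10 with the clearest separation. It held 81, 89 and 99 counts in SOX9 sgRNA libraries 1 to 3 and 43, 38 and 32 in control libraries 1 to 3. Every SOX9 sgRNA library was above every control library, as in 11.7% of all tested rows. No overlap between the groups in either direction was seen in 24.5% of them. In CPM, counts scaled to a common library size with the factors above, the level was 103 ± 10.8 with the SOX9 sgRNA and 50.6 ± 6.04 with the control sgRNA (SD, n = 3 each). The log2 difference, SOX9 sgRNA over control, was 1.02 (SE 0.23), a 2.03-fold higher level, and it stayed between 0.93 and 1.11 when any 1 library was left out. With library totals in place of the scaling factors it was 1.20, where the median of all tested rows moved to 0.19 as against 0.01 with the factors. Of all 7959 tested rows, 245 had a larger positive difference, and 7 of the 2050 rows at least as abundant as SLC25A26 did. The row was chosen with this contrast in view, and the abundance limit is its own, so nothing is read from this rank.

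LRIG1's own row held fewer counts, with 19, 22 and 44 in SOX9 sgRNA libraries 1 to 3 and 17, 22 and 18 in control libraries 1 to 3. The groups overlapped, and SOX9 sgRNA library 3 stood apart from the other 5 libraries. The level was 31.4 ± 10.3 CPM with the SOX9 sgRNA and 25.5 ± 2.64 CPM with the control sgRNA (SD, n = 3 each), a log2 difference of 0.32 (SE 0.35) that lies within its error. Without SOX9 sgRNA library 3 the difference was 0.0041 on the log2 scale. Of the counts on either row, SLC25A26 took 81.0%, 80.2% and 69.2% with the SOX9 sgRNA and 71.7%, 63.3% and 64.0% with the control sgRNA. Among the SOX9 sgRNA libraries, SLC25A26's share was lowest in the library in which LRIG1's own row was highest. The share falls by construction as LRIG1's count rises, so nothing is read from this. Which of the 2 genes gave the counts of the SLC25A26 row was not tested. Of the 9 other rows within 500 kb of LRIG1, 6 had no count in any library and none was tested, the highest count being 8, for MAGI1.

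**Figure D2:**
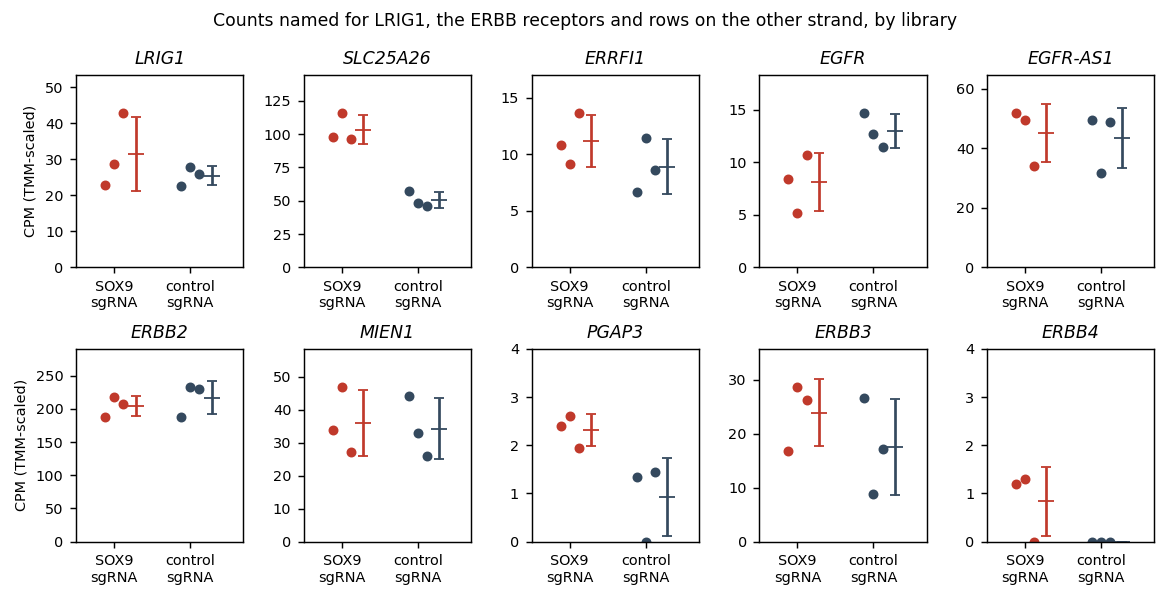
CPM of each of the 10 rows in every library (points; SOX9 sgRNA red, control sgRNA dark blue), with the group mean and SD beside them (n = 3 each) and a separate linear axis for each row. The SLC25A26 points lie between 96.4 and 116 CPM with the SOX9 sgRNA and between 46.0 and 57.4 CPM with the control sgRNA, while for LRIG1, EGFR-AS1, ERBB2, MIEN1, ERBB3 and ERRFI1 the groups overlap.

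The rows whose course over the 6 libraries was most like that of SLC25A26 were sought among 4336 others whose mean log2 CPM was 5 or more, by the root mean square distance between log2 CPM values centred on each row's own mean. MARS1, the cytosolic methionyl-tRNA synthetase gene, which lies opposite ARHGAP9, was nearest at a distance of 0.060 and held 141 ± 17.9 CPM with the SOX9 sgRNA and 68.6 ± 5.71 CPM with the control sgRNA (SD, n = 3 each). SPIDR, a scaffold gene of homologous recombination with no exon opposite it, followed at 0.087, and ENSG00000271581, a row opposite HLA-B, at 0.11. The median distance over these 4336 rows was 0.57. These points share the same 6 libraries, and a row that differs by about the same amount between the groups is near by construction.

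ERRFI1 (ENSG00000116285, chromosome 1, 8064464 to 8086368, minus strand) had no exon opposite it and did not pass the filter on low counts. It held 9, 7 and 14 counts in SOX9 sgRNA libraries 1 to 3 and 5, 9 and 6 in control libraries 1 to 3. The groups overlapped. The ratio of the summed and scaled counts, 30 with the SOX9 sgRNA and 20 with the control sgRNA, was 1.27, with an exact 95% interval of 0.700 to 2.37 that covers counting error only. The interval includes both a ratio of 1 and a moderately higher level with the SOX9 sgRNA.

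EGFR (ENSG00000146648, chromosome 7, 55086714 to 55324313, plus strand) held 7, 4 and 11 counts in SOX9 sgRNA libraries 1 to 3 and 11, 10 and 8 in control libraries 1 to 3, over 12961 exon bases, and was not tested. Scaled to library size the groups did not overlap, with 8.43, 5.20 and 10.7 CPM with the SOX9 sgRNA and 14.7, 12.7 and 11.5 CPM with the control sgRNA. Among all tested rows, to which EGFR did not belong, 24.5% showed no overlap. Summed counts were 22 with the SOX9 sgRNA and 29 with the control sgRNA, a scaled ratio of 0.645 with an exact 95% interval of 0.353 to 1.16 for counting error. The interval includes a ratio of 1.

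EGFR-AS1 (ENSG00000224057, chromosome 7, 55247443 to 55256627, minus strand) lies whole inside EGFR. Of its 2806 exon bases, 186 lie opposite the EGFR exon block at 55248986 to 55249171 and 2620 opposite EGFR introns. The row held 43, 38 and 35 counts in SOX9 sgRNA libraries 1 to 3 and 37, 25 and 34 in control libraries 1 to 3. The groups overlapped, and the level of 45.1 ± 9.61 CPM with the SOX9 sgRNA and 43.3 ± 10.0 CPM with the control sgRNA gave a log2 difference of 0.05 (SE 0.29). EGFR-AS1 took 71.4% to 90.5% of the counts of the EGFR pair. Per kilobase of exon its level was 16.1 ± 3.43 CPM with the SOX9 sgRNA and 15.4 ± 3.58 CPM with the control sgRNA, where EGFR's own row had 0.626 ± 0.214 and 1.00 ± 0.124 CPM (SD, n = 3 each). The rows nearest to EGFR-AS1 by the same distance were ENSG00000267387, opposite SHFL, at 0.078, ENSG00000260999, opposite TANGO6, at 0.093 and ENSG00000247033, opposite ZNRF1, at 0.099. The median distance from EGFR-AS1 over the 4336 rows compared was 0.38. Of 24 further rows within 500 kb of EGFR, 16 had no count and none was tested, the highest count being 15, for SEC61G.

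ERBB2 (ENSG00000141736, chromosome 17, 37844167 to 37886679, plus strand) had the most counts of the 10 rows, with 156, 168 and 213 in SOX9 sgRNA libraries 1 to 3 and 141, 183 and 160 in control libraries 1 to 3. The groups overlapped. The level was 205 ± 15.4 CPM with the SOX9 sgRNA and 217 ± 24.8 CPM with the control sgRNA, a log2 difference of -0.08 (SE 0.14). Among the receptors this was the most precise value, and a difference of 2-fold would lie far outside its error. With library totals the sign turned, to 0.10, and the difference was again within its SE of 0.14.

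Part of the ERBB2 row lies opposite other genes at each end. MIEN1 (ENSG00000141741), a gene of cell migration that neighbours ERBB2 and faces it, overlaps it over 571 exon bases in blocks 30 and 31 of 31, and PGAP3 (ENSG00000161395), a gene of GPI-anchor remodelling, over 194 bases of block 1. MIEN1 held 28, 36 and 28 counts with the SOX9 sgRNA and 33, 26 and 18 with the control sgRNA (log2 difference 0.05, SE 0.32). Its groups overlapped, as those of ERBB2 did. PGAP3 held 2 counts in each SOX9 sgRNA library and 1, 0 and 1 in the control libraries, a scaled ratio of 2.55 with an exact 95% counting interval of 0.456 to 25.8. ERBB2 took 81.0% to 89.9% of the counts of the MIEN1 pair and at least 98.7% of those of the PGAP3 pair. How many of the ERBB2 counts, if any, came from MIEN1 or PGAP3 transcripts was not tested. The level of the ERBB2 row is therefore not taken as a measure of ERBB2 mRNA alone.

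ERBB3 (ENSG00000065361, chromosome 12, 56473641 to 56497289, plus strand) had no exon opposite it and shared 31 exon bases on its own strand with ENSG00000257411. It held 14, 22 and 27 counts in SOX9 sgRNA libraries 1 to 3 and 20, 7 and 12 in control libraries 1 to 3. The groups overlapped, and the control libraries spread widely around their mean of 17.6 ± 8.91 CPM, beside 23.9 ± 6.21 CPM with the SOX9 sgRNA (SD, n = 3 each). The log2 difference of 0.45 (SE 0.42) moved to 0.10 without control library 2 and to 0.87 without control library 1. ERBB4 (ENSG00000178568), the receptor of neuregulins in differentiating mammary cells, had 2 counts in SOX9 sgRNA libraries and 0 in control libraries, where a count of 0 over the group allows up to 1.34 CPM. No ratio is given for it.

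**Figure D3:**
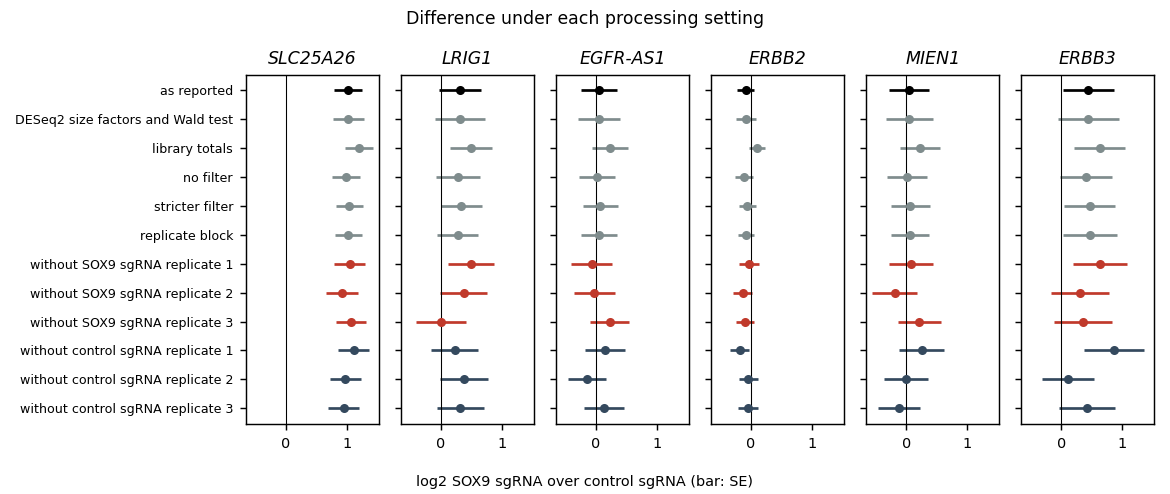
Log2 difference, SOX9 sgRNA over control sgRNA, with its SE, for the 6 tested rows among the 10 (columns) under each processing setting (rows down the page; black as reported, grey other methods, red without a SOX9 sgRNA library, dark blue without a control library). SLC25A26 stays between 0.93 and 1.20, LRIG1 is at 0.0041 without SOX9 sgRNA library 3, and ERBB2 stays between -0.19 and 0.10.

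Per kilobase of exon, the order of levels in control libraries ran from ERBB2 with 21.0 ± 2.41 CPM through EGFR-AS1 with 15.4 ± 3.58, MIEN1 with 15.0 ± 4.0, SLC25A26 with 8.64 ± 1.03, LRIG1 with 3.63 ± 0.376, ERRFI1 with 2.13 ± 0.571, ERBB3 with 2.04 ± 1.03 and EGFR with 1.00 ± 0.124 to PGAP3 with 0.252 ± 0.219 CPM, and ERBB4 at 0. EGFR-AS1 and MIEN1 did not differ beyond their spread, nor did ERRFI1 and ERBB3. With the SOX9 sgRNA, SLC25A26 had 17.6 ± 1.85 CPM per kilobase, beside 19.8 ± 1.49 for ERBB2, 16.1 ± 3.43 for EGFR-AS1 and 15.7 ± 4.34 for MIEN1, and it did not differ from EGFR-AS1 and MIEN1 beyond their spread. LRIG1's own row had 4.47 ± 1.46 CPM per kilobase with the SOX9 sgRNA.

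Of the 7 rows the rule named, 5 passed the filter on low counts and 2, EGFR and ERRFI1, did not. Past edgeR's threshold of 0.05 on the adjusted p lay 1 of the 5, SLC25A26, where 9.01% of all 7959 tested rows did so, and nothing is read from this count because the same contrast chose the rows. Of the 3 rows added, MIEN1 was tested.

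Promoter sequences were looked at because SOX9 binds DNA, with SOX factors known to recognise cores such as ACAAAG and ACAATG. RefSeq windows of 250 bases before to 50 after a start (GRCh38.p14) were found for 8 of the 10 genes, 14 windows in all, and were searched for either core on both strands. Of the 14 windows, 2 held a core, where 24.5% of all 35116 windows did (16.1% ACAAAG, 10.8% ACAATG; a window can hold both). One belongs to a start inside LRIG1 and the other to ERRFI1. The most upstream LRIG1 window, the EGFR windows, the ERBB2 window and the SLC25A26 windows held neither. The first 3 sequences are given on the strand of the gene, 5′ to 3′, with a core in capitals (for LRIG1 the core is on the other strand and reads CATTGT).
LRIG1, start inside the gene (chr3:66405718-66406017, minus strand): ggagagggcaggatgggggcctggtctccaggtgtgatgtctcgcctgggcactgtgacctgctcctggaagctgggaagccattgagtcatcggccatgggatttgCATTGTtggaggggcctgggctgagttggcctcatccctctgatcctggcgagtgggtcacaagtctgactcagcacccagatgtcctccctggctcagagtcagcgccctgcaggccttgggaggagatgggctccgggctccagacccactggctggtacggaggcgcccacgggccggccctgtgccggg
LRIG1, most upstream start (chr3:66501072-66501371, minus strand): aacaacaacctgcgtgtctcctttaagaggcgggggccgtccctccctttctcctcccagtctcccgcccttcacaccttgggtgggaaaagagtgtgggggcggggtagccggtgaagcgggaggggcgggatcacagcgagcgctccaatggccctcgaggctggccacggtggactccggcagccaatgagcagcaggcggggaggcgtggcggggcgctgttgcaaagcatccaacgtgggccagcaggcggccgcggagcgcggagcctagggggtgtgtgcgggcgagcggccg
ERRFI1 (chr1:8026260-8026559, minus strand): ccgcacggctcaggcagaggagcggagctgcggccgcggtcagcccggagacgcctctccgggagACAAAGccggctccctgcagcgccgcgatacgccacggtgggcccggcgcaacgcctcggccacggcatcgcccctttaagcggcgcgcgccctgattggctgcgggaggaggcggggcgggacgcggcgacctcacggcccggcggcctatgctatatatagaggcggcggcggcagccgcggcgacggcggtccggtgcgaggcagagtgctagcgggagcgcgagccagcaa
The ERBB2 window is shown because it reaches into its divergent neighbour, and its capitals mark the 136 bases that it shares with the window of PGAP3.
ERBB2 (chr17:39687844-39688143, plus strand): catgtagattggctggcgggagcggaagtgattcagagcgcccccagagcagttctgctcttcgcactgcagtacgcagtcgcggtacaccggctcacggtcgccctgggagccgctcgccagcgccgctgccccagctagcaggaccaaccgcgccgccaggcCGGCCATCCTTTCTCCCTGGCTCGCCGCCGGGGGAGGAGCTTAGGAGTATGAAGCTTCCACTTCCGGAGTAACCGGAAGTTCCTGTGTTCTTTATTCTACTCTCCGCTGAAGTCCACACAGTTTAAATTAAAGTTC
A match is a description of letters and no sign of binding, and its absence says only that these letters are not in the window.

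The pathway around the receptors was followed in the same lists of ERBB ligands, receptors, brakes, shedding and trafficking factors, adaptors and kinases, and genes that respond to ERK. Besides the members they held 75 genes, of which 32 were tested. None was higher and 3 were lower by edgeR's quasi-likelihood test, where 2.99% and 6.02% of all tested rows were. At an unadjusted p under 0.05 there were 1 higher and 3 lower. The share of all tested rows at that cutoff was not computed, so nothing is read from these counts. DESeq2 called 0 higher and 3 lower, beside 130 higher and 343 lower over all tested rows. The median log2 difference was 0.10 over the 32 genes, beside 0.01 over all tested rows, with 21 positive and 11 negative. Only the row with the largest exon overlap opposite each of these genes was counted, so PHLDA1-AS1, given below, was left out. Of these opposite rows 19 were tested, and 0 were higher and 2 lower, with a median of 0.08. At an unadjusted p under 0.05 there were 1 higher and 3 lower of these, again without a share of all rows to set beside them. DESeq2 called 0 higher and 2 lower of them. With library totals 2 opposite rows, those opposite PTPN1 and SHC1, were higher, where 625 of all tested rows were.

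The 3 lower genes were all in the list of ERK response, of whose 17 genes 6 were tested. MYC, a transcription factor gene of growth, held 50, 33 and 47 counts in SOX9 sgRNA libraries 1 to 3 and 84, 80 and 71 in control libraries 1 to 3, and fell by 1.08 on the log2 scale (SE 0.23, edgeR adjusted p = 0.00032). CCND1, the cyclin D1 gene of G1 progression, held 23, 20 and 33 counts with the SOX9 sgRNA and 42, 45 and 44 with the control sgRNA. It fell by 1.03 (SE 0.29, edgeR adjusted p = 0.014).

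IER3, an early response gene of survival signalling, held 38, 24 and 56 counts with the SOX9 sgRNA and 63, 66 and 60 with the control sgRNA, and fell by 0.93 (SE 0.25, edgeR adjusted p = 0.0070). In MYC, CCND1 and IER3 every SOX9 sgRNA library was below every control library, as in 12.8% of all tested rows. The rows opposite CCND1 and IER3 fell too. LTO1, opposite CCND1 over 498 bases, had 404 ± 27.6 CPM with the SOX9 sgRNA and 711 ± 8.06 CPM with the control sgRNA (SD, n = 3 each; log2 difference -0.81, SE 0.095, edgeR adjusted p = 3.31e-10). IER3-AS1, opposite IER3 over 359 bases, had 225 ± 15.8 CPM with the SOX9 sgRNA and 390 ± 56.6 CPM with the control sgRNA (log2 difference -0.80, SE 0.12, edgeR adjusted p = 7.08e-07). Without SOX9 sgRNA library 2 the own rows of CCND1 (-0.97, edgeR adjusted p = 0.059) and IER3 (-0.76, edgeR adjusted p = 0.076) lost their calls, while both opposite rows and MYC kept theirs without any 1 library. The lists were chosen with earlier results on these genes known.

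The other 3 tested genes of that list did not pass, with log2 differences of -0.66 (SE 0.54) for the receptor kinase gene EPHA2, 0.35 (SE 0.39) for PHLDA1 and 0.26 (SE 0.62) for the ETS factor gene ETV4. PHLDA1-AS1, the second row opposite PHLDA1, lies outside the rule for naming and was chosen after its values were seen. It held 423, 470 and 564 counts with the SOX9 sgRNA and 305, 339 and 294 with the control sgRNA, and rose by 0.40 (SE 0.099, edgeR adjusted p = 0.0030). The feedback genes DUSP4, DUSP5, DUSP6, SPRY1, SPRY2 and SPRY4 had at most 5 counts in any library and were not tested. Among them SPRY4 held 4, 5 and 3 counts with the SOX9 sgRNA and 0, 1 and 0 with the control sgRNA. Its groups did not overlap and those of the other 5 did, where 24.5% of all tested rows showed no overlap. SPRY4 was not among those tested rows, and nothing is read from counts this low.

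None of the 11 ligand genes was tested, and 5 of them, EGF, AREG, EREG, EPGN and NRG3, had no count in any library. TGFA, a ligand of EGFR, held 3, 0 and 8 counts with the SOX9 sgRNA and 8, 5 and 11 with the control sgRNA. NRG4, a ligand of ERBB4, held 14, 9 and 13 counts with the SOX9 sgRNA and 2, 3 and 2 with the control sgRNA. The NRG4 groups did not overlap, with the SOX9 sgRNA higher, as in 11.7% of all tested rows. NRG4 was not among those rows and was named after its values were seen, so nothing is read from its counts. Among the brakes besides LRIG1 and ERRFI1, PTPN2 alone was tested (0.11, SE 0.65), and LRIG2 and LRIG3, the relatives of LRIG1, had at most 8 and 4 counts. ADAM17, the protease that sheds several ligands, gave 0.23 (SE 0.23), and none of the 5 tested genes of shedding and trafficking passed. None of the 20 tested adaptors and kinases passed either.

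**Figure D4:**
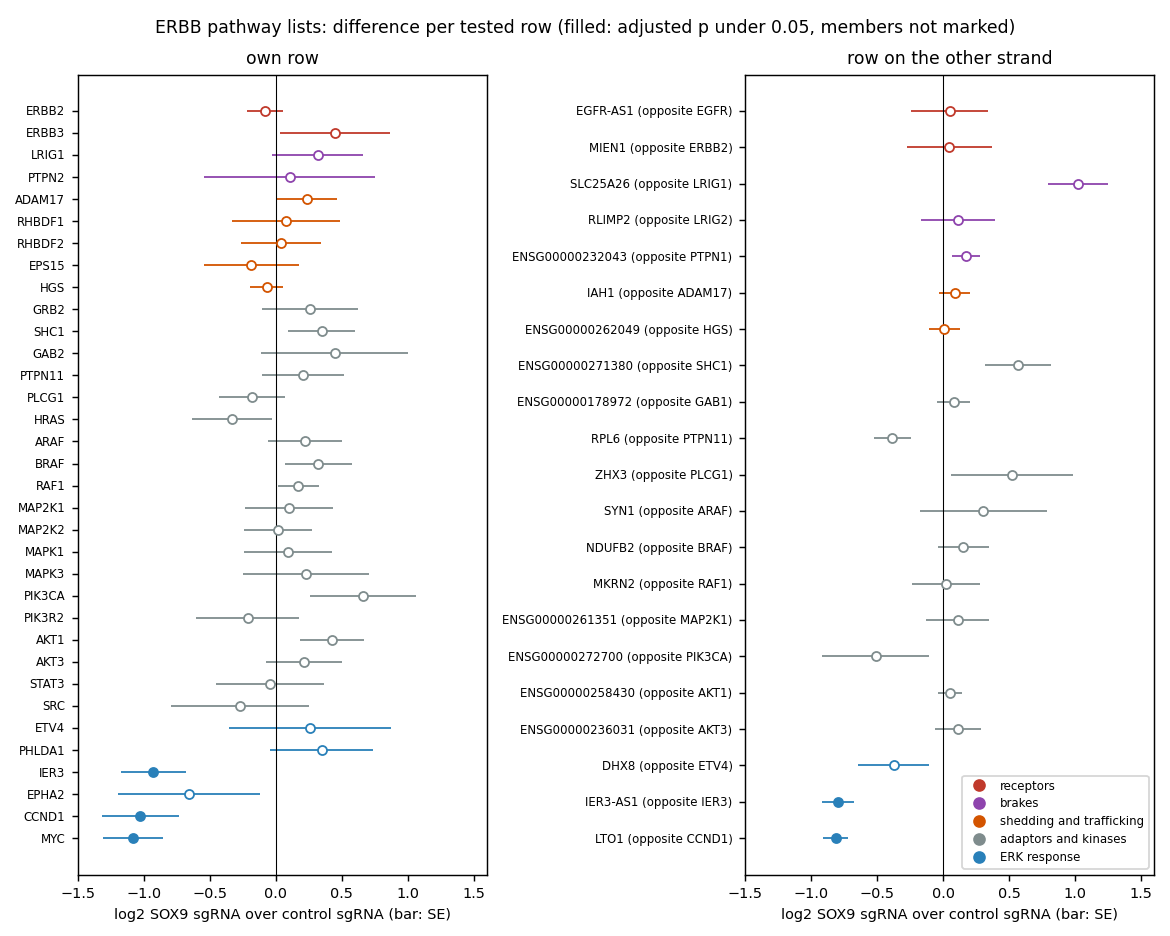
Log2 difference, SOX9 sgRNA over control sgRNA, with its SE, for the tested genes of the ERBB lists, 1 left out, on the own row (left) and on the row with the largest exon overlap on the other strand (right), coloured by list; filled points passed the adjusted threshold of 0.05, and the members, shown open, are not marked. On the left MYC, CCND1 and IER3 lie near -1, and on the right LTO1 and IER3-AS1 lie near -0.80 with SLC25A26 at 1.02.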

How the data were processed

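The authors deposited raw counts per gene, 1 table for each of the 6 libraries. STAR 2.7.10a and featureCounts (Subread 1.6.2) are the tools, and GRCh37 the build, per the submitters' processing notes. Per the file headers, counting used Ensembl release 75 exons and strand setting 1, and a fragment that overlapped several genes was counted for each.

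Groups follow the guide named in the labels. Differences come from edgeR 4.0.16 under R 4.3.3 (filterByExpr, TMM factors, robust quasi-likelihood test, Benjamini-Hochberg adjustment over 7959 tested rows, threshold 0.05), a procedure first tested on simulated data. The SE is the log2 difference divided by the square root of the test's F. Alternatives were DESeq2 1.42.0, library totals, no filter, a stricter filter (20 CPM in 3 libraries), a replicate block and leaving out each library. Exon overlaps used bedtools 2.31.1. Within each group the libraries varied beyond Poisson noise (chi-square per degree of freedom 2.00 to 2.61). Ratios of summed counts carry exact binomial intervals at 95% for counting error only.

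Of the 57209 identifiers, 38994 had a symbol in the reference table. The LRIG1 exon sequence is from GENCODE release 29 and promoter windows are from RefSeq. A gene of the ERBB lists and an immune marker are not reported here by name. Members and lists were chosen with earlier results of these data known. Genes named are all members and their opposite rows, up to 4 per list past the threshold (mean log2 CPM of 2 or more), and the 3 rows nearest to SLC25A26 and to EGFR-AS1. Other list genes (the ligands, feedback genes and further uncalled genes) and PHLDA1-AS1 were named after their values were seen.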

Additional observations from a re-analysis of the deposited data

How the results depend on the processing

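Each result was recomputed under 11 alternatives. The number of all tested rows called higher, 238 as reported, was 130 with DESeq2, 625 with library totals and 151 with no filter, and that of rows called lower, 479 as reported, was 249 with library totals. With any 1 library left out, 161 to 207 rows were higher and 364 to 430 lower. For the ERBB lists, members included, own rows gave 0 higher in every fit and 1 to 3 lower with a library left out, and 1 lower without SOX9 sgRNA library 2. Opposite rows, taken by largest overlap, gave 1 higher as reported and 3 with library totals, and 1 higher and 2 to 3 lower with a library left out. The log2 difference of SLC25A26 was 1.20 and that of ERBB2 0.10 with library totals, a scaling that raised the median of all rows to 0.19; the ranges with a library left out were 0.93 to 1.11 and -0.19 to -0.03. These ranges were 0.0041 to 0.49 for LRIG1, -0.15 to 0.22 for EGFR-AS1, -0.19 to 0.25 for MIEN1 and 0.10 to 0.87 for ERBB3. The same-numbered libraries showed no shared deviation (r = 0.025, 0.014 and -0.043 over 2403 rows). Counting noise at these library totals can hide a weak pairing, so this does not settle whether the replicate numbers pair libraries. With the replicate block SLC25A26 stood at 1.03, LRIG1 at 0.28 and ERBB2 at -0.08. At library totals of 776125 to 1018854 counts, EGFR, ERRFI1, ERBB4 and PGAP3 did not pass the filter on low counts and were not tested.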
